A study of Mus musculus with 8 samples.

Results

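The miR-17-92 and miR-106b-25 clusters are paralogous groups of microRNAs (miRNAs), short RNAs that bind messenger RNAs and lower their output. Their 9 guide strands were taken by exact array name out of 650 miRNAs on the array (611 of mouse and 39 viral): mmu-miR-17, mmu-miR-18a, mmu-miR-19a, mmu-miR-20a, mmu-miR-19b and mmu-miR-92a from miR-17-92, and mmu-miR-106b, mmu-miR-93 and mmu-miR-25 from miR-106b-25. They were followed in lungs of female C57BL/6 dams. The Printex 90 group (4 arrays) had been instilled through the trachea while pregnant with 0.067 mg of this carbon black nanoparticle in nanopure water on each of 4 days, gestational days 7, 10, 15 and then 18, for a sum of 0.268 mg. The vehicle control group (4 arrays) had been given nanopure water alone. Lungs were taken when the pups were weaned, 26 to 27 days after exposure. The labels do not say whether each array was a separate mouse, so spreads and p-values describe these samples, and in whole lung fewer cells of a type cannot be told from less RNA per cell.

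Each cluster is cut from a common primary transcript, and its members are grouped by the seed, bases 2 to 8, which pairs with target messenger RNAs. miR-17-92 is known as an oncogenic cluster activated by MYC and E2F factors, and mice that lack it die at birth with underdeveloped lungs. The miR-106b-25 cluster lies within Mcm7, a gene of the replication licensing helicase. Members of both clusters repress the cell cycle inhibitor Cdkn1a and the pro-apoptotic Bcl2l11.

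The mature sequences below, from RefSeq on GRCm38.p6, carry the seed in capitals and show which members of the 2 clusters share it. Each of the 9 array names was paired by hand with the RefSeq strand of that miRNA. The miR-17-92 hairpins lie within 836 bases at chr14:115043671-115044506 (plus strand). The extent listed for the noncoding host gene Mir17hg starts only at base 115044390 and holds 1 of the 6 hairpins. The miR-106b-25 hairpins lie within 498 bases at chr5:138165321-138165818 (minus strand), with 3 of 3 inside Mcm7.
miR-17: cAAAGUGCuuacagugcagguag
miR-20a: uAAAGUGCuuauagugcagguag
miR-106b: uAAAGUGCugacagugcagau
miR-93: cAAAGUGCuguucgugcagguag
miR-18a: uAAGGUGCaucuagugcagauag
miR-19a: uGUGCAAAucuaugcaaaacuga
miR-19b: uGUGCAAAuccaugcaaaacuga
miR-92a: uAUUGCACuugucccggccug
miR-25: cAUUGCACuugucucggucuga

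The miR-17 seed (AAAGUGC) and the miR-92 seed (AUUGCAC) occur in both clusters, the first in miR-17 and miR-20a against miR-106b and miR-93, the second in miR-92a against miR-25. The miR-18 seed (AAGGUGC) and the miR-19 seed (GUGCAAA) occur in miR-17-92 only. With positions counted from the 5′ end, miR-19a and miR-19b differ by U11C alone, and miR-17 and miR-20a by C1U and C12U. From miR-92a to miR-25, 3 of the 21 bases compared differ (U1C, C14U and C18U). miR-19b and miR-92a are each encoded again, letter for letter, in a paralogous cluster on chromosome X, so their signals cannot be assigned to a locus.

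Array signals were expressed as multiples of the 75th percentile of that array, taken over 240 mouse miRNAs with detection on all 8. The percentile itself was 580.8 to 720.6 intensity units on the Printex 90 arrays and 628.4 to 804.7 on the control arrays, with 248 to 283 and 251 to 283 mouse miRNAs detected. The 8 arrays sat on 1 slide scanned together. Printex 90 filled slide row 2 and controls row 1, and the effect of the row cannot be told apart from that of the group. Replicates of the same number lay in the same slide column in both groups. Markers of lung endothelium (2 of 2), epithelium (5 of 5) and multiciliated cells (3 of 3) were detected on all 8 arrays. So were those of red blood cells (3 of 3), leukocytes (4 of 4) and striated muscle (3 of 3), while the liver miRNA miR-122 was detected on 3 Printex 90 and 4 control arrays. The brightest viral miRNA, of a murine gammaherpesvirus, reached 0.241 ± 0.0304 on the Printex 90 arrays and 0.241 ± 0.0258 on the control arrays (SD, n = 4 each). Of 39 viral miRNAs, 4 were detected on at least 1 array and 3 on all 8. How far signals at or below this level, such as those of the members miR-17 and miR-18a, are specific was not tested.

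No member of either cluster passed the test for a difference between Printex 90 and control lungs. Of the 9 members, 0 passed a limma adjusted p of 0.05 (Benjamini-Hochberg over 268 tested miRNAs, of which 0% passed), and 0 had an unadjusted p under 0.05, against 5.6% of all tested. The groups overlapped for every member on the log2 values, where 1.49% of tested miRNAs had groups apart. The limma adjusted p of the members lay between 0.724 and 0.934. Of the 9 members 8 had a log2 difference below 0 and 1 above, with a median of -0.038. Of all tested miRNAs 65.7% lay below 0 and 31.7% above, with a median of -0.046. That split depended on the processing and on single arrays. With the percentile taken over all mouse miRNAs 4 members lay below 0 and 4 above (47.8% of all tested below), with quantile normalization 3 and 5 (51.9%), with normexp background correction 3 and 6 (29.9%), with the brightest probe of each miRNA 3 and 6 (43.3%), and without scaling 8 and 1 (83.2%). Without control replicate 1 it was 5 and 3 (63.8%), and without Printex 90 replicate 1 it was 6 and 3 (67.5%). Where a split adds up to 8 members, miR-17 was at the floor on all arrays.

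**Figure D1:**
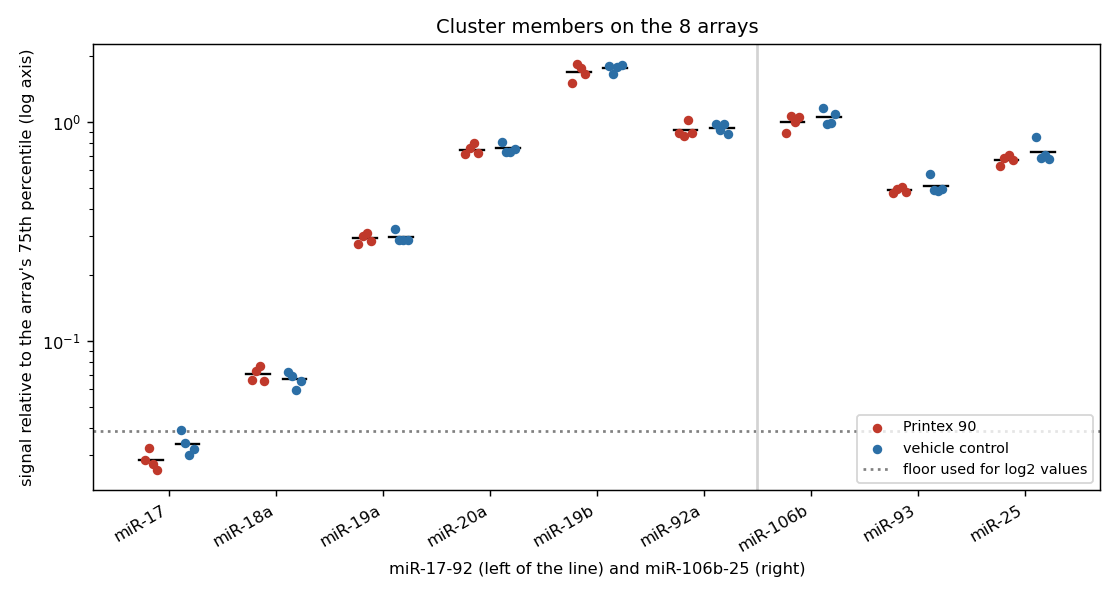
Signal of each member relative to the array's 75th percentile (log axis) on 4 Printex 90 arrays (red, left) and 4 vehicle control arrays (blue, right), with a black bar at the group mean and the floor of 0.0388 as a dotted line. The groups overlap for all 9 members, and heights of different miRNAs are not comparable because their probes differ.

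The miR-17-92 cluster holds 2 members with the miR-17 seed, miR-20a and miR-17. miR-20a, a repressor of Cdkn1a and of E2F factors, measured 0.708, 0.758, 0.796 and 0.719 in the Printex 90 lungs, against 0.811, 0.730, 0.730 and 0.750 in control lungs (replicates 1 to 4 throughout). The groups overlapped, with Printex 90 replicate 1 lowest and control replicate 1 highest. Its log2 difference was -0.020 (95% interval -0.14 to 0.10, limma adjusted p = 0.916), and it was 0.015 without control replicate 1 and 0.0043 without Printex 90 replicate 1.

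miR-17, the cluster's name-giving member and a repressor of the same targets, measured 0.0284, 0.0323, 0.0274 and 0.0258 on the Printex 90 arrays, against 0.0392, 0.0343, 0.0300 and 0.0320 on the control arrays. It was well above background on 2 Printex 90 and 4 control arrays and under the floor of 0.0388 on all arrays but control replicate 1, so its tested difference (-0.0037, limma adjusted p = 0.934) reflects the floor. Without the floor it averaged 0.0285 ± 0.00276 after Printex 90 and 0.0339 ± 0.00398 in controls (SD, n = 4 each), a ratio of 0.841. With the floor set to 0.01 the log2 difference was -0.25 (limma adjusted p = 0.779).

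The 3 members of miR-106b-25 all had log2 differences below 0, and in none were the groups apart. miR-106b, a miR-17 seed member that targets Cdkn1a, measured 0.886, 1.06, 0.994 and 1.05 in the Printex 90 lungs, against 1.15, 0.971, 0.986 and 1.08 in control lungs. Printex 90 replicate 1 was lowest and control replicate 1 highest, with the other 6 arrays mixed. The log2 difference was -0.070 (95% interval -0.25 to 0.12, limma adjusted p = 0.767), and it was -0.014 without Printex 90 replicate 1 and -0.023 without control replicate 1.

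miR-93, also a miR-17 seed member, measured 0.473, 0.495, 0.502 and 0.476 on the Printex 90 arrays, against 0.579, 0.488, 0.481 and 0.492 on the control arrays. Control replicate 1 stood above the other 7 arrays, which lay within a narrow band. The log2 difference was -0.063 (95% interval -0.21 to 0.087, limma adjusted p = 0.767), and it was -0.0012 without control replicate 1.

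miR-25, a miR-92 seed member that represses Bcl2l11, measured 0.625, 0.682, 0.707 and 0.665 in the Printex 90 lungs, against 0.851, 0.680, 0.702 and 0.678 in control lungs. Again control replicate 1 stood apart, and the other controls lay inside the Printex 90 range. Its log2 difference of -0.11 (95% interval -0.31 to 0.080, limma adjusted p = 0.724) was the farthest from 0 of the 9 as tested, where the floor holds miR-17. With the floor at 0.01 miR-17 lay farther from 0, at -0.25. Without control replicate 1 the log2 difference of miR-25 was -0.037. miR-25 ranked 75 of 268 by p.

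The seed partner of miR-25 in the other cluster is miR-92a, known in endothelium as a repressor of integrin subunits. miR-92a measured 0.892, 0.856, 1.02 and 0.889 on the Printex 90 arrays, against 0.974, 0.916, 0.975 and 0.883 on the control arrays. Its highest array was Printex 90 replicate 3, and it averaged 0.914 ± 0.0713 after Printex 90 and 0.937 ± 0.0456 in controls (SD, n = 4 each). The log2 difference was -0.038 (95% interval -0.19 to 0.11, limma adjusted p = 0.826), and it ran from -0.091 without Printex 90 replicate 3 to -0.0078 without Printex 90 replicate 2.

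Of the 2 clusters compared, only miR-17-92 holds the miR-19 pair, known for much of its oncogenic activity. miR-19b measured 1.51, 1.83, 1.76 and 1.65 in the Printex 90 lungs, against 1.79, 1.65, 1.77 and 1.82 in control lungs. Printex 90 replicate 1 was the low array and the others overlapped (log2 difference -0.061, 95% interval -0.22 to 0.094, limma adjusted p = 0.767). Without Printex 90 replicate 1 its difference was -0.0077. miR-19a measured 0.277, 0.300, 0.309 and 0.286 on the Printex 90 arrays, against 0.323, 0.288, 0.287 and 0.287 on the control arrays. Its 3 other controls were nearly identical while control replicate 1 was high, and the log2 difference was -0.014 (95% interval -0.14 to 0.11, limma adjusted p = 0.918). It was 0.029 without control replicate 1 and 0.013 without Printex 90 replicate 1.

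miR-18a, which has been linked to repression of the matrix gene Ccn2, was the 1 member with a log2 difference above 0. It measured 0.0659, 0.0727, 0.0769 and 0.0657 in the Printex 90 lungs, against 0.0720, 0.0692, 0.0597 and 0.0653 in control lungs. The groups overlapped, and the log2 difference was 0.080 (95% interval -0.10 to 0.26, limma adjusted p = 0.767). It was 0.029 without control replicate 3 and 0.035 without Printex 90 replicate 3. Only 1 of its 2 probes was well above background on all 8 arrays. As tested, with miR-17 held by the floor, the widest of the members' 95% intervals was that of miR-25, reaching a fold of 0.807. The highest upper bound, that of miR-18a, was a fold of 1.20.

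**Figure D2:**
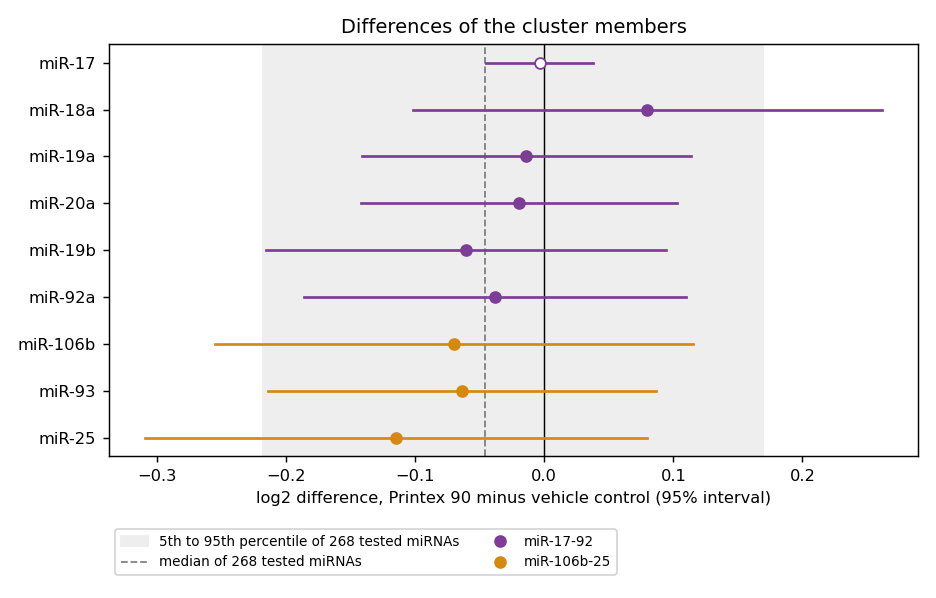
Log2 difference (Printex 90 minus vehicle control) of each member with its 95% interval from limma, in purple for miR-17-92 and in orange for miR-106b-25. The grey band spans the 5th to 95th percentile of the 268 tested miRNAs (-0.22 to 0.17) and the dashed line is their median, and all 9 intervals include 0. The open symbol is miR-17, whose narrow interval comes from the floor.

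Each member was read by 2 probes, which allowed a check within the array. For 7 members both probes were well above background on all arrays, and in 7 of 7 both probes differed in the same direction, with log2 differences at most 0.069 apart. The probes of miR-25 gave -0.13 and -0.11, those of miR-93 -0.11 and -0.052, and those of miR-19b -0.040 and -0.11. For miR-17, only the brighter probe, with 81.0% of the summed signal, was well above background, on 6 arrays.

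Set side by side, the clusters had median log2 differences of -0.070 (miR-106b-25, range -0.11 to -0.063) and -0.017 (miR-17-92, range -0.061 to 0.080). The median of all tested miRNAs, -0.046 (quartiles -0.11 and 0.021), lay between them. Without the floored miR-17 the median of miR-17-92 was -0.020. With the floor at 0.01 it was -0.029, and miR-17 lay below the range given for that cluster, at -0.25. Of 23 alternative settings, 5 left the difference between the medians exactly as reported (no scaling, doubled floor, no filter, intensity trend and replicate block). In 17 of the other 18 the median of miR-106b-25 was the lower, and in the authors' deposited value table it was not (-0.022 against -0.028). All of them reuse the same 8 arrays. Without control replicate 1 the medians were -0.023 and 0.0077, and that of all tested miRNAs was -0.036, below both.

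Array by array, each member's log2 signal was centred on its own mean over the 8 arrays and averaged within a cluster. miR-106b-25 gave -0.14, 0.0072, 0.00046 and -0.030 after Printex 90, against 0.23, -0.044, -0.029 and 0.010 in controls. miR-17-92 without miR-17 gave -0.092, 0.023, 0.10 and -0.053 after Printex 90, against 0.092, -0.025, -0.030 and -0.016 in controls. Both clusters were lowest on Printex 90 replicate 1, and control replicate 1 was high in both. The difference between the clusters (miR-106b-25 minus miR-17-92) was -0.036 ± 0.052 after Printex 90 and 0.036 ± 0.069 in controls (SD, n = 4 each), with overlapping groups; it was given no test.

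**Figure D3:**
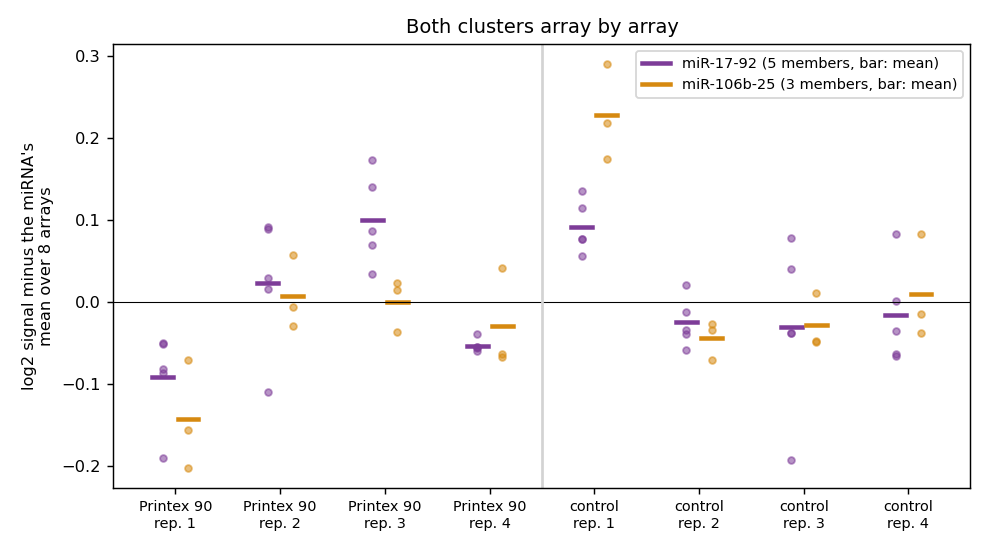
Log2 signal of each member minus its own mean over the 8 arrays (points) and the cluster mean (bars), for 4 Printex 90 arrays (left) and 4 vehicle control arrays (right), with miR-17 left out. Control replicate 1 is high in both clusters (0.092 and 0.23) and Printex 90 replicate 1 is low in both (-0.092 and -0.14).

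Control replicate 1 had the highest signal of all arrays for 6 of the 9 members, where it was highest for 15.7% of all tested miRNAs. The same array also had the highest summed signal of the red blood cell miRNAs miR-451, miR-144 and miR-486, at 46.9. That sum ran from 21.7 to 30.6 on the Printex 90 arrays, against 19.7 to 46.9 in controls. On control replicate 1 the sum of the leukocyte miRNAs was the lowest, at 6.68, where the Printex 90 arrays ran from 7.02 to 8.45 and the controls up to 8.61. Of the leukocyte miRNAs, miR-223 alone was itself lowest on that array. For miR-142-3p, miR-142-5p and miR-150 a Printex 90 array was lower. The part of the red blood cell and leukocyte miRNAs in the members' values was not tested. Printex 90 replicate 1 was lowest for 6 of the 9 members and for 26.1% of all tested. The SD of its log2 difference from another Printex 90 array was 0.41 to 0.46, over miRNAs measured above the floor on every array. Between the other Printex 90 arrays this SD was 0.15 to 0.25, and between control arrays 0.16 to 0.34. Printex 90 replicate 1 had the lowest sum of the endothelial miRNAs (34.4, other arrays up to 43.0). It also had the highest sum of the muscle miRNAs (3.00, other Printex 90 arrays from 0.263, controls 0.331 to 1.85). The part of the endothelial and muscle miRNAs was not tested either. Both arrays lay in slide column 1 and were picked after the values were seen. Over the 8 arrays the members spanned 1.15-fold (miR-20a) to 1.52-fold (miR-17, detected on 6) ranges, against a median of 1.31-fold over 232 other miRNAs detected on all arrays (quartiles 1.20 and 1.43).

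Members with the same seed in different clusters were then set against each other as ratios. Over the 8 arrays the ratio of miR-106b to miR-20a spanned a 1.17-fold range, that of miR-93 to miR-20a a 1.13-fold range and that of miR-25 to miR-92a a 1.26-fold range. As log2 ratios centred over the arrays, miR-25 to miR-92a averaged -0.038 ± 0.092 after Printex 90 and 0.038 ± 0.12 in controls (SD, n = 4 each), with the highest value, 0.21, on control replicate 1. miR-93 to miR-20a averaged -0.022 ± 0.036 after Printex 90 and 0.022 ± 0.056 in controls, and miR-106b to miR-20a -0.025 ± 0.11 and 0.025 ± 0.055. The groups overlapped in each of these ratios. By seed, the median log2 differences were -0.042 for the 4 miR-17 seed members, 0.080 for miR-18a, -0.037 for the miR-19 pair and -0.076 for the miR-92 seed pair. Without the floored miR-17 the miR-17 seed median was -0.063, and without control replicate 1, with miR-17 kept, it was -0.00060.

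Signals of the members were also compared with each other across arrays. On deviations from the group means over the 8 arrays, the median Pearson correlation was 0.57 among 10 pairs of miR-17-92 members (miR-17 left out), 0.69 among the 3 pairs of miR-106b-25 and 0.64 among 15 pairs across the clusters. The median over all pairs of 236 miRNAs measured above the floor on every array was 0.16. The closest pairs were miR-19a with miR-20a (0.96), miR-19a with miR-25 (0.96) and miR-93 with miR-25 (0.95), while miR-92a with miR-106b gave -0.057. In the same order, Spearman rho was 0.79, 0.93, 0.76 and -0.29. These are descriptions: the arrays share their scaling, and how far probes of similar sequences share signal was not tested. Within miR-17-92 the median was 0.63 without control replicate 1, 0.52 without Printex 90 replicate 1 and 0.41 without Printex 90 replicate 3. Within miR-106b-25 it was 0.50 without control replicate 1 and 0.72 without Printex 90 replicate 1. Without both of these arrays, which were picked for their extreme values in these members, the medians were 0.52 within miR-17-92, -0.050 within miR-106b-25, 0.50 across the clusters and 0.24 over all pairs.

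Among 247 other tested miRNAs, 3 were most like the mean of miR-17-92 (miR-17 left out) over the 8 arrays. They were miR-125a-5p (Pearson r 0.95), miR-99b (0.93) and miR-152 (0.92), with Spearman rho of 0.98, 0.93 and 0.98. For miR-106b-25 they were miR-16 (0.90), miR-125a-5p (0.87) and miR-181a (0.86), each with rho 0.83. Without the 2 arrays farthest from the median of each profile, r was 0.96, 0.86 and 0.88 for miR-17-92 and 0.68, 0.65 and 0.61 for miR-106b-25. The 3 miRNAs of each set were picked as the highest of all compared, so r is given without a test.

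The third paralogous cluster, miR-106a-363 on chromosome X, was represented by 3 of its 4 listed guide strands. miR-18b and miR-363 were detected on no array. miR-20b, another miR-17 seed miRNA, was detected on all 8 and measured 0.382 ± 0.0175 after Printex 90 and 0.393 ± 0.0156 in controls (SD, n = 4 each; log2 difference -0.042, limma adjusted p = 0.767). Its sequence shows how close it is to miR-20a, from which it differs by U1C and U10C.
miR-20a: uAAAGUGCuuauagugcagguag
miR-20b: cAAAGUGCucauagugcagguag
The ratio of miR-20b to miR-20a spanned a 1.06-fold range over the 8 arrays, the narrowest of 6 ratios computed. How far the probes separate these sequences was not tested, so the miR-20b signal is uncertain. Of the miRNAs outside the clusters with the miR-92 seed, miR-32 was detected on all arrays and measured 0.104 ± 0.00867 after Printex 90 and 0.109 ± 0.00588 in controls (SD, n = 4 each; log2 difference -0.068, limma adjusted p = 0.767). miR-367 and miR-92b were detected on none.

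**Figure D4:**
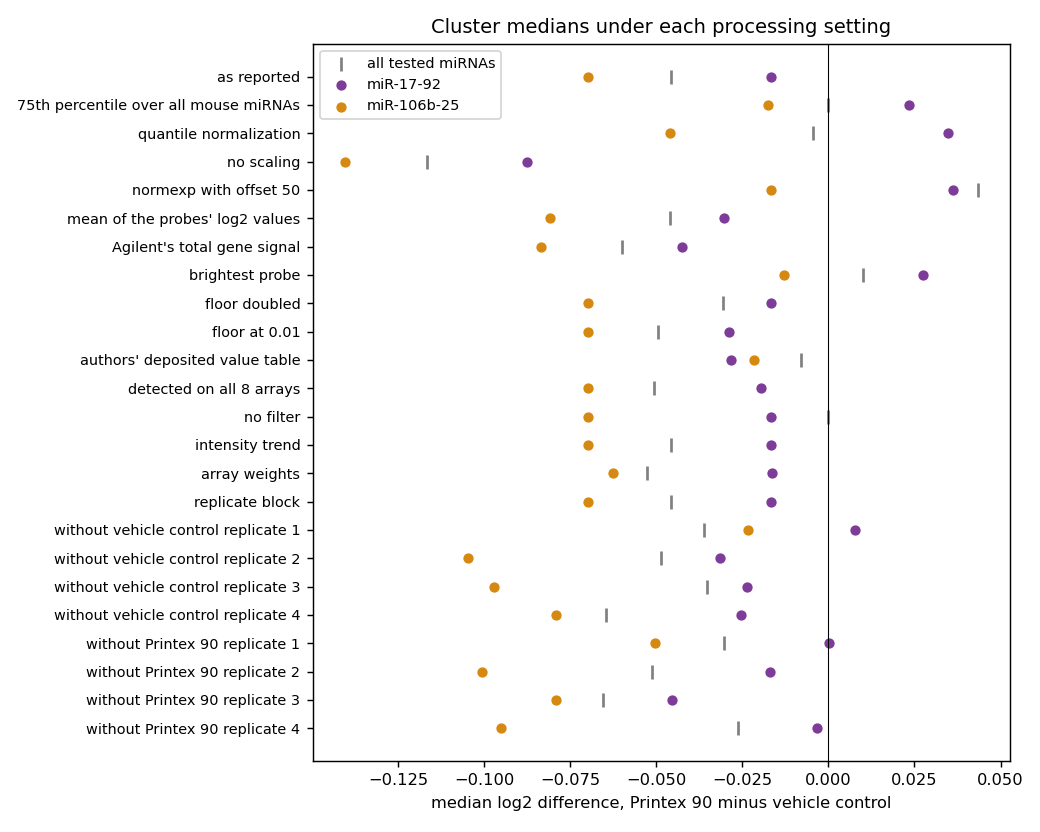
Median log2 difference (Printex 90 minus vehicle control) of miR-17-92 (purple), miR-106b-25 (orange) and all tested miRNAs (grey ticks) as reported and under 23 alternative settings. The miR-106b-25 median lies left of the miR-17-92 median except in the authors' deposited value table, 5 settings leave the gap as reported, and the miR-17-92 median lies right of 0 in 6 settings, among them the percentile over all mouse miRNAs, quantile normalization, normexp and the brightest probe.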

How the data were processed

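Lung RNA was hybridised to 8 one-colour Agilent miRNA arrays. The authors scanned and quantified each array with Agilent Feature Extraction 10.7.3.1 (grid design 021828), per the file headers, which gave a background-subtracted intensity per spot with no normalization between arrays. Flags of 0 or 1 per spot and Agilent's total signal per miRNA come from the same scanner output. A value table that the authors deposited has log2 values with column medians of 5.41 to 5.43 in both groups. Its scale and centring steps are not stated, and it served as an alternative.

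Control spots and outlier-flagged spots were left out. Spots of a probe were averaged and probes of a miRNA summed. A miRNA was detected where 50% of the kept spots of a probe were well above background. Arrays were divided by their 75th percentile over 240 mouse miRNAs detected on all arrays, floored at 0.0388 (5th percentile of detected signals) and log2-transformed. Testing covered 268 mouse miRNAs with detection on 4 or more arrays and used limma 3.58.1 in R 4.3.3 (2-sided, Benjamini-Hochberg), a step tested on simulated data. The fit used no imputed or dropped array. As an alternative, normexp was run on the median spot signal in place of the planned mean signal. Differences near the floor are understated. Precision is limited by having 4 arrays per group.

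The members, lists and tests were chosen with earlier results of these data known, and the relative miR-92b was added after the array names were read. All 9 members were named, with those listed relatives and opposite strands detected on at least 4 arrays, and the 3 miRNAs most correlated with each cluster's mean profile. Array names were paired with RefSeq strands by hand.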

Additional observations from a re-analysis of the deposited data

Results flagged for a closer look

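In groups of 4 arrays, the distance from the highest or lowest array to its neighbour was divided by the group's range and set against Dixon's 95% limit of 0.829. It was exceeded in 4 of 22 groups (9 members, miR-20b and miR-32 in each treatment group), and all 4 were high values of vehicle control replicate 1. Chance exceeds the limit in about 1 of 20 groups, a share that does not hold for the floored miR-17 groups. On the log2 scale miR-19a lay there at -1.63 (next control -1.80, gap 0.974 of the range), miR-93 at -0.79 (next -1.02, gap 0.872) and miR-25 at -0.23 (next -0.51, gap 0.851). miR-17 lay there at -4.67 with the other controls at the floor of -4.69, so its gap is set by the floor. These 4 values come from the same array and are not independent of each other.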

How the results depend on the processing

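Under 23 alternatives (8 leaving out an array, 15 others) 0 of the 9 members passed a limma adjusted p of 0.05 in any, and the lowest was 0.491 (miR-92a, without Printex 90 replicate 3). Of 201 member values 54 equalled the reported one, mostly because the setting cannot move it. Of the other 147, 125 kept their sign and 22 changed it; none was called. With the percentile over all mouse miRNAs, which shifts all miRNAs above the floor alike, the log2 differences of miR-19a, miR-20a and miR-92a were 0.038, 0.033 and 0.014; with quantile normalization those of miR-19a, miR-20a, miR-92a and miR-93 were 0.025, 0.077, 0.044 and 0.0058; with normexp those of miR-17, miR-19a, miR-20a, miR-92a and miR-93 were 0.053, 0.048, 0.025, 0.012 and 0.0035. With the brightest probe alone miR-19a, miR-20a, miR-19b, miR-92a and miR-93 gave 0.039, 0.032, 0.015, 0.023 and 0.0029, and in the authors' deposited table miR-19a gave 0.041. Leaving out an array gave -0.039 to 0.029 for miR-19a and -0.052 to 0.015 for miR-20a. Without scaling the medians of miR-17-92 and of the miR-17 seed were -0.087 and -0.11. Of all tested miRNAs 0 passed as reported, 3 with normexp, 1 with the floor at 0.01 and 0 to 3 without an array (3 without Printex 90 replicate 3); each was miR-21, miR-146b or miR-135b. The cause of these changes was not tested. The labels number the replicates alike in both groups, and same-numbered arrays share a slide column. Their deviations correlated at -0.14, -0.61, -0.39 and 0.75 over 236 miRNAs. The highest correlation of the same Printex 90 arrays with a control of another number was 0.72, 0.70, 0.43 and 0.13. Only replicate 4 was closest to its own number. Deviations add up to 0 within each group of 4, which ties these correlations to each other, so the check does not settle whether arrays pair. With the replicate block, which is also a block on the column, 0 miRNAs passed and the cluster medians stayed at -0.017 and -0.070. miR-17 lay at the floor on all arrays with the percentile over all mouse miRNAs, quantile normalization, the doubled floor and without control replicate 1, and miR-18a with the doubled floor; they count there as 0 in the medians and in no direction. The dim miR-17 and miR-18a are the members limited by signal over background.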

Other observations

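Of the 9 opposite strands of the cluster hairpins, 7 were on the array by the listed names and 2 were detected, both on all 8 arrays. miR-17*, from the other arm of the miR-17 hairpin, measured 0.0623 ± 0.00102 after Printex 90 and 0.0634 ± 0.00642 in controls (SD, n = 4 each; log2 difference -0.020, limma adjusted p = 0.918). miR-18a* measured 0.146 ± 0.0138 after Printex 90 and 0.152 ± 0.0101 in controls (SD, n = 4 each; log2 difference -0.058, limma adjusted p = 0.777).

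Of 6 listed miRNAs of the miR-290 and miR-302 clusters of embryonic stem cells, whose seed is close to that of miR-17, only miR-294 was detected, on all 8 arrays. It measured 0.180 ± 0.0309 after Printex 90 and 0.213 ± 0.0302 in controls (SD, n = 4 each). The log2 difference was -0.25 (limma adjusted p = 0.706). Both means lay below that of the brightest viral miRNA (0.241 in each group), and how far the miR-294 signal is specific was not tested.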
